A study of Mus musculus with 4 samples.

Results

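Enzymes that oxidise or conjugate foreign compounds made up 8 of the 84 genes on an RT-PCR array for mouse nephrotoxicity. They were chosen by symbol and not by their values, though with earlier results of these data known. The oxidising enzymes are Fmo2, Aldh1a1, Cyp2d4 and Cyp2c11, and the conjugating enzymes are Ugt1a1, Ugt1a6, Gstp1 and Gstk1. RNA came from MCT cells, a murine kidney epithelial line that the labels assign to the convoluted tubule, grown with 10% fetal serum. There was 1 sample in each of 4 conditions: cells without treatment, cells given the calcineurin inhibitor CsA at 10 μg/ml, cells given SB203580, which inhibits p38 MAPK, at 10 μM, and cells given 11R-VIVIT, a peptide inhibitor of NFAT, at 1 μM. The labels name no carrier treatment for the untreated cells. With 1 sample per condition no difference has a replicate error, no test was possible, and precision is limited by the number of samples.

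Cells clear drugs and toxins in steps. Cytochrome P450 enzymes, flavin monooxygenases and aldehyde dehydrogenases first oxidise a compound. UDP-glucuronosyltransferases and glutathione S-transferases then attach glucuronic acid or glutathione, and transporters carry the product out of the cell. In the kidney, the tubule epithelium does much of this work, and many of these genes are known to respond to the compounds that their enzymes handle.

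In these single samples, CsA took more of the enzymes past 2-fold than the other compounds did, a difference that was not tested. It did so on the whole array as well, where 20% of the genes were raised and 16.2% lowered under CsA, against 15.2% and 8.86% under SB203580 and 5.26% and 3.95% under 11R-VIVIT. Relative to Actb, it raised Ugt1a6 at least 4.61-fold, Gstp1 2.32-fold and Aldh1a1 2.02-fold, and Gstk1 was 3.97-fold lower. Relative to the median of the array in place of Actb, the log2 changes of Gstp1 (0.72) and Aldh1a1 (0.52) fell short of 2-fold. Under SB203580 and under 11R-VIVIT, Cyp2c11 alone reached a 2-fold increase, at least 2.00-fold and at least 2.23-fold. Both calls rest on late PCR cycles and were lost with a detection limit of 34, chosen after seeing the data. The SB203580 bound was 0.91 on the log2 scale relative to the array median, short of 2-fold. Cyp2c11 is a rat symbol without a match in the mouse annotation. Relative to Actb, Aldh1a1 was 1.93-fold higher under SB203580 and had a log2 change of -0.93 under 11R-VIVIT, both short of 2-fold. Without a reference its log2 change under SB203580 was 1.25, past 2-fold.

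The array gives a Ct, the PCR cycle at which a gene's signal crosses the detection threshold, so that a lower Ct means more template. Actb, the beta-actin reference, had a Ct of 18.12 in untreated cells, 17.84 under CsA, 17.81 under SB203580 and 18.13 under 11R-VIVIT. A log2 change is the Ct relative to Actb in untreated cells minus that in treated cells, and raised or lowered means by 2-fold or more, a log2 change of 1. A Ct of 35 or more was taken as not detected and set to 35, so that a change against such a sample is a bound. Among the 69 genes detected in all 4 samples, the median Ct moved by 0.50 cycles more than Actb under CsA, by 0.089 under SB203580 and by -0.0125 under 11R-VIVIT, and every change relative to that array median was lower by this amount. The samples are bulk RNA of equal input, so fewer expressing cells and less RNA per cell cannot be told apart. Of 14 proximal tubule markers listed, Slc22a6 is reported here, with a Ct between 32.06 and 34.08, so the labelled tissue could be checked little. Of 6 distal nephron markers, Egf had a Ct between 28.95 and 30.09 and was lowered under CsA (log2 change -1.15) and SB203580 (-1.45), with -0.11 under 11R-VIVIT. Its part in the results for the enzymes was not tested. Calb1 was detected under SB203580 (34.36) and not in the other samples. Of the epithelial, leukocyte and endothelial markers listed, 0 were on the array.

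Of the 32 Ct values of the 8 enzymes, 7 were at or past cycle 35. Gstp1, Gstk1, Aldh1a1 and Cyp2d4 were detected in all 4 samples, and the other 4 enzymes were at the limit in at least 1. The closest to the limit on the far side were untreated Ugt1a1, with a Ct of 35.0006, and untreated Cyp2c11, with 35.0433. On the near side they were Ugt1a6 under 11R-VIVIT, at 34.755, and untreated Fmo2, at 34.7623. A value at this depth starts from few template molecules and is less certain than one at an early cycle. Ct values of different assays also depend on each primer pair, so levels were compared within a gene and not between genes.

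**Figure D1:**
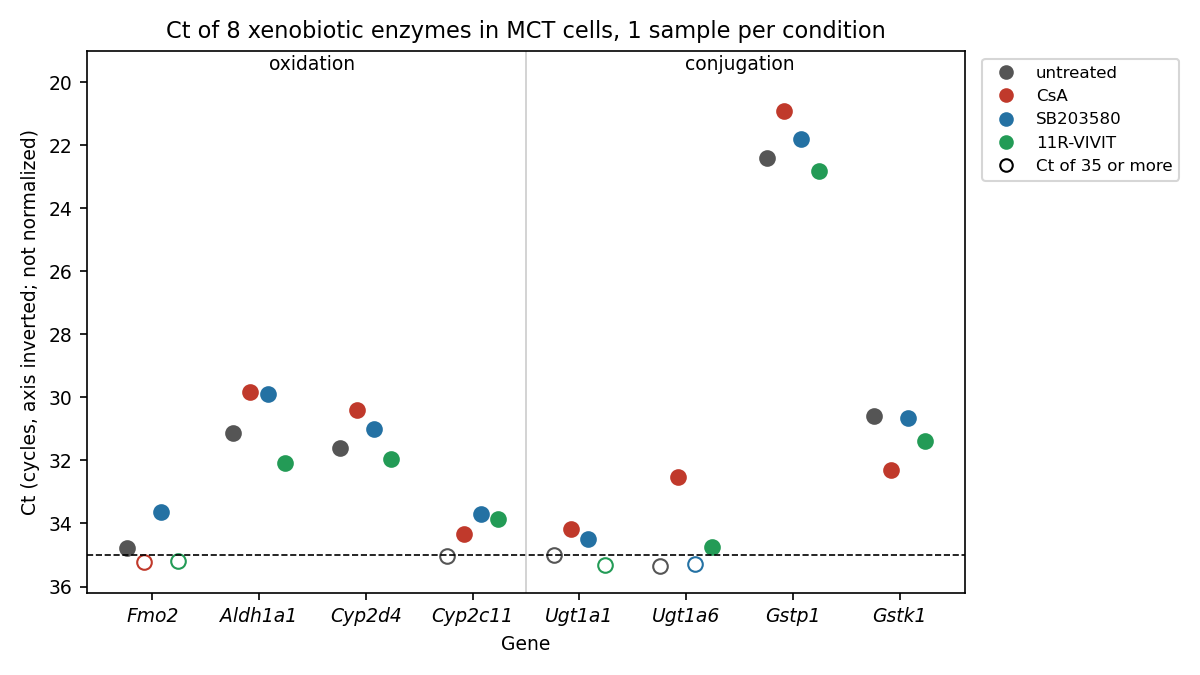
Ct of each enzyme (vertical axis, in cycles and inverted, so that more template is higher) for the 4 samples, with open circles at a Ct of 35 or more and a dashed line at 35. Gstp1 lies between 20.9 and 22.8, and every Ct of the other 7 enzymes is later than 29.8.

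Fmo2 encodes a flavin-containing monooxygenase, which oxidises nitrogen and sulphur atoms in drugs. Its Ct was 34.76 in untreated cells, 35.23 under CsA, 33.65 under SB203580 and 35.19 under 11R-VIVIT. The SB203580 sample was the highest in expression, and Fmo2 was not detected under CsA or 11R-VIVIT. Against untreated cells, the log2 change was 0.81 under SB203580, at most -0.51 under CsA and at most -0.23 under 11R-VIVIT. The SB203580 change was 1.11 without a reference, and the CsA bound was -1.009 relative to the array median, both past 2-fold. Fmo2 was at least 2.49-fold lower under CsA than under SB203580, and at least 2.05-fold higher under SB203580 than under 11R-VIVIT. The second bound was short of 2-fold relative to the array median (0.93 on the log2 scale) and with an amplification base of 1.9 (0.957). At a Ct limit of 34, chosen after seeing the data, both calls were lost, with bounds of -0.32 and 0.033. The SB203580 Ct of 33.6479 was listed to the last digit for Fgb as well, the only pair of genes on the array with the same Ct in 1 sample. Whether this is a coincidence or a copied value was not tested, and it touches each Fmo2 value under SB203580.

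Aldh1a1 encodes a cytosolic aldehyde dehydrogenase that oxidises aldehydes and turns retinaldehyde into retinoic acid. Its Ct was 31.13 in untreated cells, 29.84 under CsA, 29.88 under SB203580 and 32.07 under 11R-VIVIT. CsA and SB203580 stood close together on the high side, and 11R-VIVIT was the lowest sample. The log2 change was 1.02 under CsA, 0.95 under SB203580 and -0.93 under 11R-VIVIT. Without a reference the SB203580 change was 1.25, past 2-fold. The value under 11R-VIVIT was the third lowest of the 70 genes measured in both samples. Directly compared, Aldh1a1 was 3.85-fold higher under CsA than under 11R-VIVIT and 3.67-fold higher under SB203580 than under 11R-VIVIT, the latter the second highest of 73 genes. The log2 difference of CsA over SB203580 was 0.068, or -0.34 relative to the array median. The call under CsA stood at the threshold: the log2 change was 0.52 against the array median, and 0.94 if each cycle multiplied the product by 1.9.

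The row named Cyp2d4 carries a symbol in use for a rat cytochrome P450 of the CYP2D subfamily, whose members oxidise many basic drugs. The Ct was 31.60 in untreated cells, 30.39 under CsA, 31.01 under SB203580 and 31.95 under 11R-VIVIT. CsA was again the highest sample and 11R-VIVIT the lowest. The log2 change of 0.94 under CsA fell short of 2-fold (1.92-fold), and it was 0.29 under SB203580 and -0.34 under 11R-VIVIT. Without a reference the CsA change was 1.22, past 2-fold. Between the treated samples, Cyp2d4 was 2.43-fold higher under CsA than under 11R-VIVIT, which became a log2 difference of 0.77 relative to the array median.

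The row named Cyp2c11 likewise has the symbol of a rat gene, a liver P450 that hydroxylates testosterone. Its Ct was 35.04 in untreated cells, 34.34 under CsA, 33.69 under SB203580 and 33.85 under 11R-VIVIT. All 3 treated samples were detected and the untreated sample was not. The log2 change was at least 1.16 under 11R-VIVIT, 1.003 or more under SB203580 and 0.38 or more under CsA. Directly compared, the log2 differences of Cyp2c11 were -0.77 between CsA and 11R-VIVIT, -0.62 between CsA and SB203580 and -0.15 between SB203580 and 11R-VIVIT. The first 2 passed 2-fold relative to the array median, at -1.28 and -1.03. The SB203580 call was lost relative to the array median, where the bound was 0.91. When a Ct of 34 or more was taken as not detected, a limit chosen after seeing the data, the bounds were 0.0029 under SB203580 and 0.16 under 11R-VIVIT. The mouse annotation GRCm38.p6 lists neither Cyp2d4 nor Cyp2c11 as a symbol or synonym, so which mouse genes these assays amplify is not settled here.

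Ugt1a1 encodes the UDP-glucuronosyltransferase that conjugates bilirubin. Its Ct was 35.0006 in untreated cells, 34.17 under CsA, 34.48 under SB203580 and 35.31 under 11R-VIVIT. It was detected under CsA and under SB203580, and not in the other samples. Its log2 change was at least 0.56 under CsA and 0.21 or more under SB203580, and there is no value under 11R-VIVIT because both samples were at the limit. The log2 difference of CsA over SB203580 was 0.35, or -0.063 relative to the array median. No difference of Ugt1a1 was called at 2-fold, though all but that of CsA over SB203580 were lower bounds or had no value. When late Ct values were kept, its highest and lowest sample differed 1.81-fold relative to Actb. Without a reference their Ct differed by 1.14 cycles, past 2-fold.

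Ugt1a6 encodes a related transferase that conjugates small planar phenols. Its Ct was 35.36 in untreated cells, 32.52 under CsA, 35.27 under SB203580 and 34.76 under 11R-VIVIT. The CsA sample stood apart, more than 2 cycles ahead of each of the others. Its log2 change under CsA was at least 2.20, or 2.57 (5.93-fold) when late Ct values were kept. Under 11R-VIVIT it was at least 0.26, and under SB203580 there is no value. Without the untreated sample, Ugt1a6 was 3.86-fold higher under CsA than under 11R-VIVIT, the fifth highest of 73 genes, and at least 5.70-fold higher than under SB203580. The CsA increase stayed above 2-fold under the alternatives that left it a value, with bounds down to 1.205 on the log2 scale for a Ct limit of 34 and of 1.71 relative to the array median. GRCm38.p6 lists Ugt1a6 as a synonym of Ugt1a6a, and Ugt1a1 lies within the span of Ugt1a6a and ends at the same base. Genes of this locus are known to join their own first exon to shared later exons, and the primer positions are not given in the sources used here.

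Gstp1 encodes the pi class glutathione S-transferase, which couples glutathione to electrophiles. It was detected early, with a Ct of 22.41 in untreated cells, 20.92 under CsA, 21.79 under SB203580 and 22.81 under 11R-VIVIT. CsA was the highest sample and 11R-VIVIT the lowest. The log2 change was 1.21 under CsA, 0.31 under SB203580 and -0.38 under 11R-VIVIT. CsA exceeded 11R-VIVIT 3.03-fold and SB203580 1.87-fold. The CsA change was the eleventh highest of 70 genes, and it was 0.72 on the log2 scale relative to the array median, below 2-fold.

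Gstk1 encodes the kappa class enzyme, a glutathione S-transferase of mitochondria and peroxisomes. Its Ct was 30.58 in untreated cells, 32.30 under CsA, 30.65 under SB203580 and 31.38 under 11R-VIVIT. Untreated cells were the highest sample and CsA the lowest, whereas CsA was the highest sample for Gstp1. The log2 change was -1.99 under CsA, the fourth lowest of 70 genes, -0.37 under SB203580 and -0.79 under 11R-VIVIT. Gstk1 was 3.07-fold lower under CsA than under SB203580 and 2.30-fold lower than under 11R-VIVIT. The CsA change was -2.49 relative to the array median and -1.72 without a reference, so it passed 2-fold under each of the 3 references. With a Ct limit of 32 it became a bound of at most -1.69. The gap to 11R-VIVIT was -0.92 on the log2 scale without a reference, short of 2-fold.

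**Figure D2:**
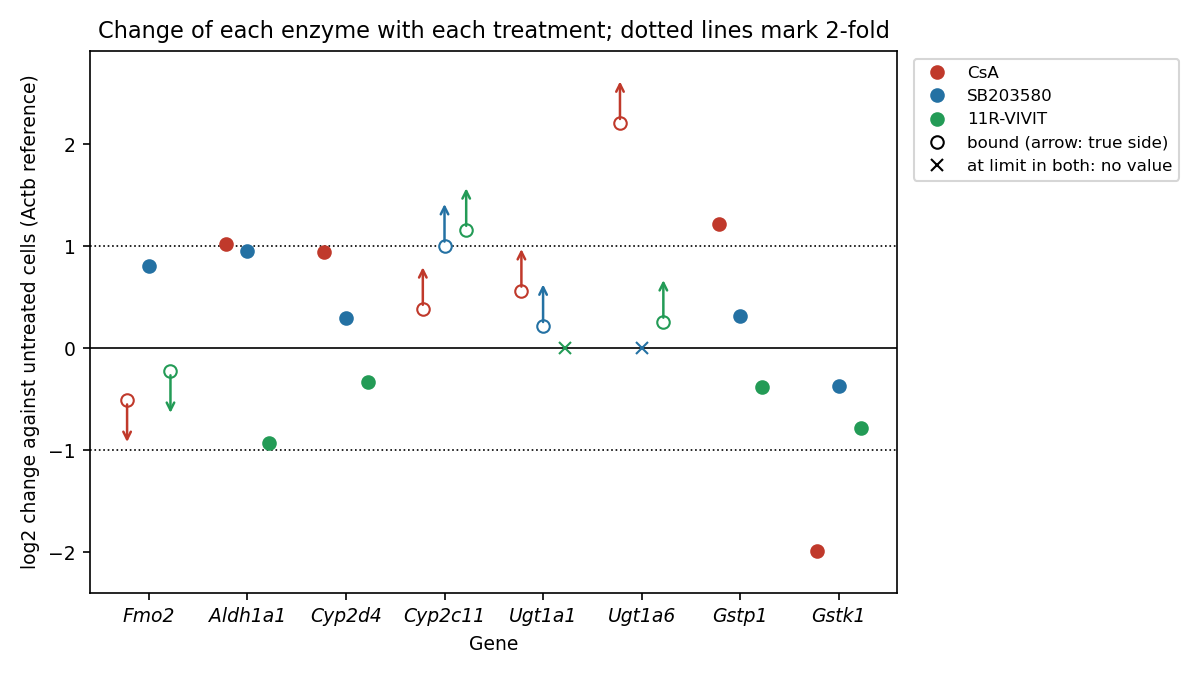
Log2 change of each enzyme against untreated cells relative to Actb (vertical axis) for CsA, SB203580 and 11R-VIVIT, 1 sample each. Open circles are bounds with an arrow towards the true side, crosses have no value, and dotted lines mark 2-fold; the CsA points of Ugt1a6 (at least 2.20) and Gstk1 (-1.99) lie farthest from 0.

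Set against the whole array, the counts were as follows. CsA raised 3 of the 8 enzymes, where 20% of 80 array genes with a value were raised, and it lowered 1, where 16.2% were lowered. SB203580 raised 1 of 7 enzymes with a value, beside 15.2% of 79 genes, and lowered 0, beside 8.86%. 11R-VIVIT raised 1 of 7, beside 5.26% of 76 genes, and lowered 0, beside 3.95%. Shares of this size in 7 or 8 genes do not set the enzymes apart from the array.

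By direction alone, bounds included where they give one, 6 enzymes were above untreated cells and 2 below under CsA. Under SB203580 these were 6 above and 1 below, and under 11R-VIVIT 2 above and 5 below. On the whole array, 55.8% of the genes with a direction were above under CsA, 60.3% under SB203580 and 47.4% under 11R-VIVIT. The shares under CsA and SB203580 moved with the scaling. Relative to the array median they were 42.7%, 56.4% and 48.7%, and without a reference 67.5%, 75.9% and 47.4%, in the same order. Under these settings the counts of enzymes above and below were as given, except that 5 in place of 6 were above under CsA relative to the array median. All 3 comparisons use the same untreated sample. Over the enzymes measured in both samples, the median log2 change was 0.98 for 4 enzymes under CsA, 0.31 for 5 under SB203580 and -0.59 for 4 under 11R-VIVIT. Over all genes measured in both, it was 0.20, 0.25 and -0.039.

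The treated samples were also compared directly, in 3 pairs that share samples with each other. CsA exceeded 11R-VIVIT at least 2-fold for Aldh1a1, Cyp2d4, Gstp1 and Ugt1a6, 4 of 7 enzymes with a value, beside 22.8% of 79 genes, and was lower for Gstk1, beside 15.2%. CsA exceeded SB203580 for Ugt1a6, 1 of 8 enzymes, beside 12.3% of 81 genes, and was lower for Fmo2 and Gstk1, beside 18.5%. SB203580 exceeded 11R-VIVIT for Aldh1a1 and Fmo2, 2 of 8, beside 13.8% of 80 genes, and was lower for 0, beside 7.5%. The gap between CsA and 11R-VIVIT held the most calls, and its median over 6 enzymes measured in both was 1.44 on the log2 scale against 0.099 over 73 genes. Of the 3 pairs it held the most calls on the whole array as well. Relative to the array median, Cyp2d4 lost its call in this pair (0.77). The pair is singled out by its values, and counts in so few genes do not set the enzymes apart from the array.

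**Figure D3:**
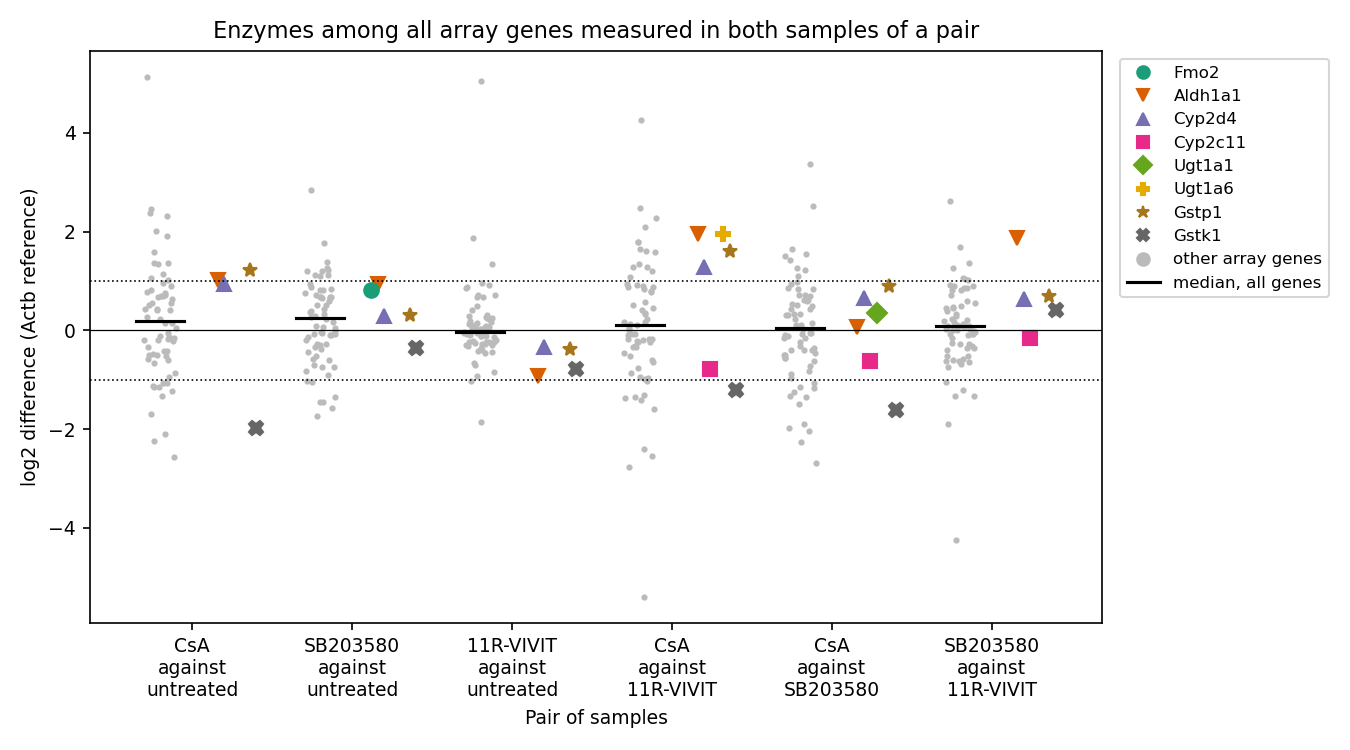
Log2 difference relative to Actb (vertical axis) for 6 pairs of samples, with each enzyme measured in both samples as a coloured symbol, the other array genes as grey points and the median of all genes as a black bar. In the pair of CsA and 11R-VIVIT, Ugt1a6, Aldh1a1, Gstp1 and Cyp2d4 lie above the upper dotted line of 2-fold and Gstk1 below the lower one.

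Gstp1, Aldh1a1 and Cyp2d4 shared 1 order of samples, in which CsA was highest, followed by SB203580, untreated cells and 11R-VIVIT. This was noticed after the values were seen. Of the 69 genes detected in all samples, 9 had this order, these 3 included. Relative to the array median 4 genes had it, Gstp1 and Cyp2d4 among them, and without a reference 15 had it. For Aldh1a1, CsA and SB203580 were nearly tied, with a log2 difference of 0.068, or -0.34 relative to the array median. Likeness of pattern was measured as the root mean square difference of the centred log2 levels over the 4 samples, against 68 other genes. The gene most like Gstp1 was Cyp2d4, with a difference of 0.12, followed by Tmsb10 (0.15), which encodes an actin-binding peptide. Most like Cyp2d4 were Tmsb10 (0.12) and Gstp1. The genes nearest to Aldh1a1 were Rgn (0.39), the calcium-binding protein regucalcin, and Gstp1 (0.43). In the other direction, Aldh1a1 was number 19 of 68 in likeness to Gstp1 and number 22 in likeness to Cyp2d4. Gpx8, a peroxidase of the endoplasmic reticulum, was nearest to Gstk1 (0.21). Gstk1 and Gstp1, the 2 glutathione transferases, differed by 1.25, and Gstp1 was number 57 of 68 in likeness to Gstk1.

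The sequences before the start sites are given for Aldh1a1 and for the glutathione transferases, which moved in opposite directions under CsA. Aldh1a1 shared the order of Gstp1 relative to Actb, and not relative to the array median. These sequences are from RefSeq on GRCm38.p6, the 250 bases before the annotated start, 5′ to 3′ on the strand of the gene. Capitals mark motif matches.
Gstp1, chr19:4037913-4038162, minus strand: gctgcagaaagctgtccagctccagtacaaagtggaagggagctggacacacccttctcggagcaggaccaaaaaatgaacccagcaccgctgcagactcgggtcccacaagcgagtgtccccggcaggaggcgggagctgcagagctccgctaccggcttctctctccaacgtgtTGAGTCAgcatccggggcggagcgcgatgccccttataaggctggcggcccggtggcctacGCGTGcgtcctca
Aldh1a1, chr19:20492333-20492582, plus strand: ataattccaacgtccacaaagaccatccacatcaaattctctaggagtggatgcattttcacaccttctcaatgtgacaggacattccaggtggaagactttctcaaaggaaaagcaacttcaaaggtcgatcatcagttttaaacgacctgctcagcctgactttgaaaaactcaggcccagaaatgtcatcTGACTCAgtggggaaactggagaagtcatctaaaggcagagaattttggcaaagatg
Gstk1, chr6:42245685-42245934, plus strand: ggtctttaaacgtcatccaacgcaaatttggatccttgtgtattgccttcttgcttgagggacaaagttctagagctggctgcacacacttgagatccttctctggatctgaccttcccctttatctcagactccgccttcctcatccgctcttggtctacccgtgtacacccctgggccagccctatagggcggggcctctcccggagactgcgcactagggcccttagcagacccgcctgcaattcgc
On both strands, 3 motifs were searched: TGACTCA, bound by AP-1, TGACNNNGC, the core of the antioxidant response element, and GCGTG, the core bound by the aryl hydrocarbon receptor. TGACTCA can overlap TGACNNNGC, which shares its first letters. Of 32851 such windows in the mouse annotation, 4.46% hold the first motif, 10.2% the second and 28.2% the third. Gstp1 holds the first motif on its opposite strand, from -74 to -68 relative to the start, and GCGTG from -13 to -9. Aldh1a1 holds TGACTCA from -57 to -51 at the start printed here and none of the motifs at its other annotated start. That other window, chr19:20601718-20601967, lies far downstream, and the window printed is the one with a match. Which start MCT cells use was not tested. The windows of Gstk1, Fmo2, Ugt1a1 and Ugt1a6a hold none of these letters. A match describes the letters of a window and is not a measured site.

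**Figure D4:**
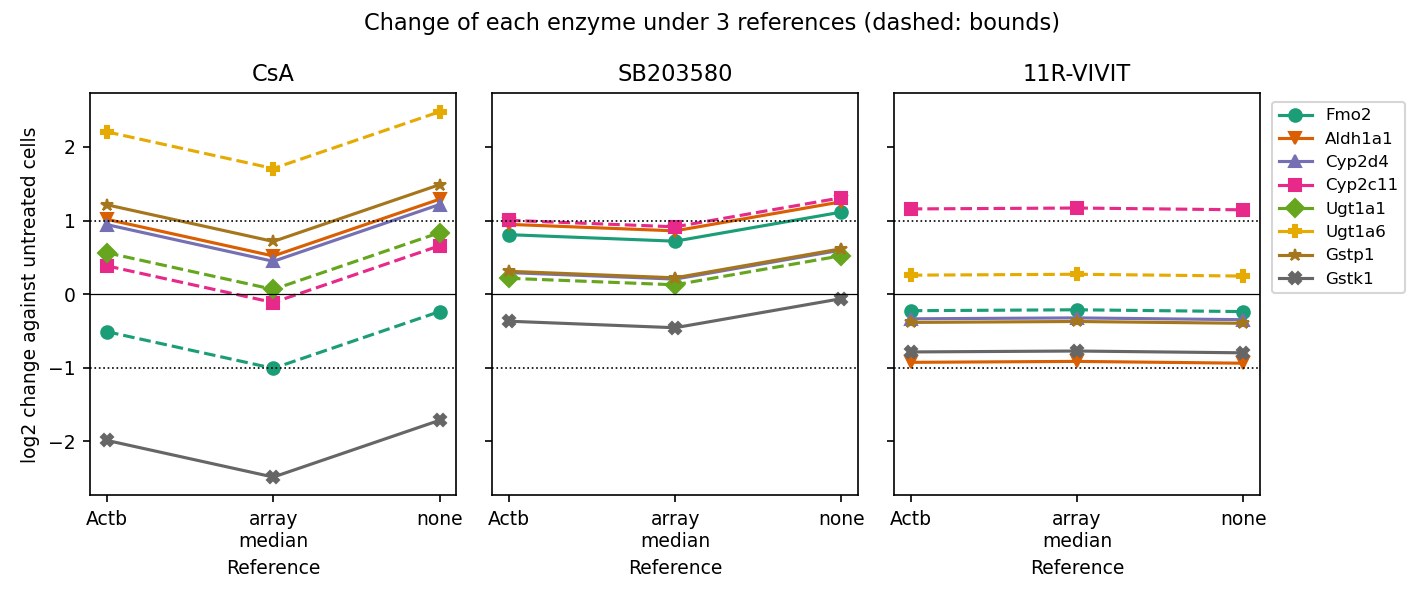
Log2 change of each enzyme against untreated cells (vertical axis) with Actb, the array median or no gene as the reference, 1 panel per treatment, dashed lines for bounds and dotted lines at 2-fold. The array median lowers each CsA value by 0.50, which takes Gstp1 to 0.72 and Aldh1a1 to 0.52, and moves the 11R-VIVIT values little.

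Of a list of 75 other genes, of the same handling system or of oxidative stress, 12 on the array are reported here. Hmox1, Hmox2, Cat, Sod2, Sod3, Gpx8 and Mt1a were listed as oxidative stress genes. The pooled counts and medians are therefore not of drug handling alone. CsA raised 0 of the 12 and lowered 4, SB203580 raised 0 of 11 with a value and lowered 2, and 11R-VIVIT raised 1 of 11 and lowered 0. On the whole array, CsA raised 20% and lowered 16.2% of the genes, SB203580 raised 15.2% and lowered 8.86%, and 11R-VIVIT raised 5.26% and lowered 3.95%. Their median log2 change over 10 genes measured in both samples was -0.54 under CsA, 0.15 under SB203580 and -0.096 under 11R-VIVIT. Its group of oxidation, reduction and hydrolysis held 1 gene on the array, Nqo1, a quinone reductase and known target of the oxidative stress response. Its Ct was 35.71 in untreated cells, 34.12 under CsA, 35.06 under SB203580 and 35.33 under 11R-VIVIT, a log2 change of at least 0.61 under CsA and no value otherwise. This lower bound does not show whether Nqo1 rose 2-fold under CsA, and the medians leave Nqo1 out.

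Among redox genes, CsA lowered Hmox1, the inducible heme oxygenase, with a log2 change of -2.24, and Gpx8 with -1.70. SB203580 lowered Hmox1 (-1.74) and Sod2, the mitochondrial superoxide dismutase (-1.04). 11R-VIVIT raised the row named Mt1a, after a metallothionein, with a log2 change of 5.05. Hmox2, Cat and Sod3 passed 2-fold under none of the treatments. Of the transporters, CsA lowered Abcc2, an efflux pump for conjugates (-1.07), and the organic anion uptake carrier Slc22a6 (-1.32), both with a Ct later than 33 in untreated cells. Abcb1b, a drug efflux pump, and the carnitine transporter Slc22a5 passed it under none. Relative to the array median, each CsA value of these genes is lower by 0.50, which takes Hmox2 (-0.60 relative to Actb) past 2-fold.

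**Figure D5:**
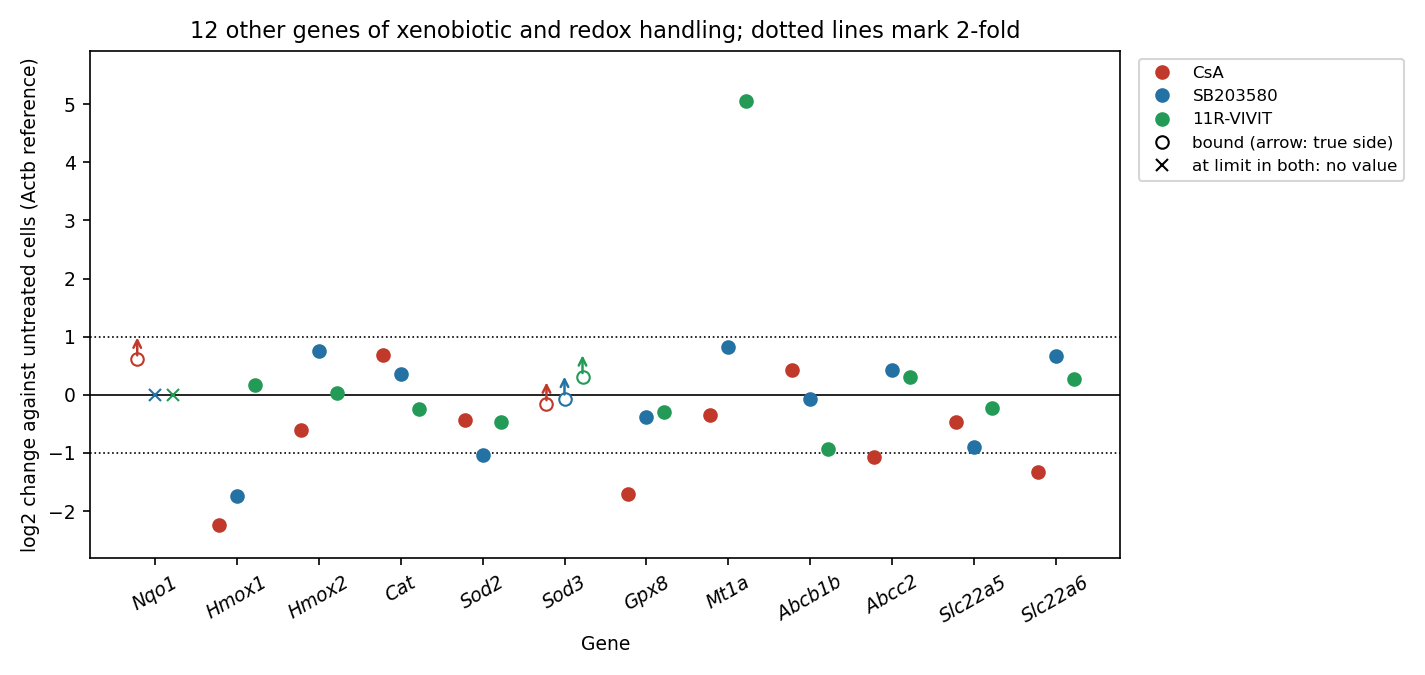
Log2 change against untreated cells relative to Actb (vertical axis) of 12 further genes of xenobiotic and redox handling, in the same symbols as for the enzymes, with dotted lines at 2-fold. CsA lies below the lower line for Hmox1, Gpx8, Abcc2 and Slc22a6, and the 11R-VIVIT point of Mt1a stands highest, at 5.05.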

How the data were processed

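Total RNA of MCT cells was extracted with TRIzol and reverse transcribed, and a SYBR green array was run on the same amount of cDNA for each sample. The authors deposited 1 Ct per gene and sample, which carries no normalization, for 84 genes and Actb. Instrument, threshold and number of wells are not given in the sources used here. A second deposited table holds only fold changes that the authors calculated and was not used. Columns were assigned to conditions by their titles. Changes were calculated by the delta-delta Ct method with Actb as reference, an amplification base of 2 and a Ct limit of 35. The study's methods state that housekeeping genes of the array were used and do not name them, and the table used here holds Actb. The calculation was checked on simulated data. No test was possible with 1 sample per condition, and calls used a 2-fold threshold. The alternatives were the array median or no gene as reference, Ct limits of 32 or none, a base of 1.9, and thresholds of 1.5-fold and 3-fold, with Ct limits of 34 and 36 added after the data were seen. All 8 enzymes were named, with the listed genes on the array and the 2 genes most like each enzyme detected in all samples. One gene of the lists is not reported here, and the counts and medians of the lists do not include it, a change made once the values were known. The enzymes, lists and rules were chosen with earlier results of these data known. Of the 8 symbols, 5 matched a symbol of GRCm38.p6, 1 a synonym and 2 neither. Calculations used Python 3.11.15, numpy 2.4.6 and pandas 2.3.3.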

Additional observations from a re-analysis of the deposited data

How the results depend on the processing

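Over 7 alternative settings, 284 log2 values or bounds were recalculated. Of these, 259 stayed on their side of 0 and of 2-fold, 14 dropped under 2-fold, 7 passed it and 3 changed sign, and for 1 a bound lost its direction. Part of this tally was fixed in advance. No enzyme Ct reached 36, so no Ct limit and a limit of 36 gave the same 45 values. A base of 1.9 cannot change a sign, and limits of 32 and 34 leave pairs with earlier Ct values unchanged. Pairs without a value under a limit are not in the tally, so it does not measure robustness. The sign changed for Ugt1a1 (-0.063) and Aldh1a1 (-0.34) between CsA and SB203580 relative to the array median, and for Cyp2c11 between SB203580 and 11R-VIVIT without a reference (0.16). The cause was not tested beyond the construction of each setting. Relative to the array median, CsA raised 1 enzyme and lowered 2, SB203580 raised 0, CsA was lower than 11R-VIVIT for 2, and SB203580 exceeded 11R-VIVIT for 1. Smaller moves were CsA raising 4 enzymes without a reference and at 1.5-fold, and 2 with a Ct limit of 32 and with a base of 1.9, CsA exceeding 11R-VIVIT for 3 relative to the array median, with a limit of 32 and at 3-fold, CsA being lower than SB203580 for 3 relative to the array median and at 1.5-fold, and SB203580 exceeding 11R-VIVIT for 3 without a reference. Without a reference, SB203580 raised 3 enzymes and CsA was lower than 11R-VIVIT for 0. With detection ending at cycle 32 (fewer values), SB203580 and 11R-VIVIT raised 0, CsA was lower than 11R-VIVIT for 0, exceeded SB203580 for 0 and was lower than it for 1, and SB203580 exceeded 11R-VIVIT for 1. With a limit of 34, SB203580 and 11R-VIVIT raised 0, CsA was lower than SB203580 for 1, and SB203580 exceeded 11R-VIVIT for 1. With an amplification base of 1.9, SB203580 raised 0 and exceeded 11R-VIVIT for 1. At 1.5-fold, SB203580 raised 3, 11R-VIVIT lowered 2, CsA was lower than 11R-VIVIT for 2 and exceeded SB203580 for 3, and SB203580 exceeded 11R-VIVIT for 4. At 3-fold, CsA raised 1, SB203580 and 11R-VIVIT raised 0, CsA was lower than 11R-VIVIT for 0 and lower than SB203580 for 1, and SB203580 exceeded 11R-VIVIT for 1. No count moved with no Ct limit or with a limit of 36. No paired analysis was possible because each condition has 1 sample. Late amplification limits Ugt1a1, Ugt1a6, Fmo2 and Cyp2c11 most, since each has a Ct at or past 35 in at least 1 sample.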
